A study of Caenorhabditis elegans with 2 samples.

Results

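The genes described here are 10 genes for centrosome assembly in the nematode Caenorhabditis elegans: spd-2, zyg-1, sas-5, sas-6, sas-4, spd-5, tbg-1, gip-1, zyg-9 and tac-1. They were taken by symbol from the deposited table of exon and intron reads, and all 10 were found among its 19487 genes. Each had enough reads for every measure used below, so no member was lost to a filter.

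RNA came from mixed-stage embryos of strain BW1943, freed by bleaching from cultures at 16 °C or 25 °C. The embryos at both temperatures carried gad-1(ct226), a mutant allele of a WD-repeat protein gene that the series title links to splicing and the Prp19 complex, together with the body-shape marker dpy-11(e224). There was 1 library per temperature and no wild-type library is analysed here, so the effects of temperature, mutation and library cannot be told apart. The labels do not say what either allele does at the molecular level or how many cultures were pooled.

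A centrosome is a pair of centrioles inside a shell of pericentriolar material, and it organizes the microtubules of the mitotic spindle. In the worm embryo the centrioles enter with the sperm, whereas most centrosome proteins are supplied by the mother and then support the rapid divisions of early development. In worm genetics SPD-2 and the kinase ZYG-1 start a new centriole, SAS-5 and SAS-6 build its central tube, and SAS-4 adds its microtubule wall. SPD-5 forms the scaffold of the pericentriolar material, TBG-1 and GIP-1 belong to the complex that starts microtubules, and ZYG-9 with TAC-1 keeps them long.

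The 16 °C library held 22016818 reads in exons or introns of genes and the 25 °C library 18175617. Intron reads were 1.43% and 2.47% of them. The embryo label was checked against marker lists. All 12 maternal and early embryo markers were detected, with a summed exon level of 1258.3 reads per 1000000 at 16 °C and 1222.5 at 25 °C. The 6 yolk genes of the adult intestine summed to 4.95 and 4.9 reads per 1000000 (vit-4 was at 0 at 16 °C), and the 3 sperm genes found in the table to 0.136 and 0.605 (gsp-3 was at 0 at 16 °C and spe-11 at 25 °C). The early zygotic markers went from 65.2 to 22.8 reads per 1000000, and 7 of 8 with enough reads were at least 2-fold lower at 25 °C. Differentiated muscle, pharynx and gut genes went from 2250.4 to 1669.8, with 8 of 10 at least 2-fold lower. The exceptions were unc-54 (0.924-fold) and myo-3 (1.24-fold), which had the most exon reads of this list in both libraries. The sum therefore understates the fall of the other genes, which were 6.66-fold to 31.1-fold lower. Epidermis markers summed to 2495.8 and 3017.4, with 0 of 7 past 2-fold either way, and neuron markers to 622.3 and 524.7, with 3 of 7 at least 2-fold lower. Whether embryo composition differed between the libraries, and what part it had in the values below, was not tested. In whole embryos fewer cells of a type and less RNA per cell cannot be told apart.

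In outline, all 10 centrosome genes had at least as many library-scaled exon reads at 25 °C as at 16 °C. All 10 also had a higher intron-to-exon read ratio, as did 80.4% of tested genes and 90.7% of genes in the same exon read span, given below. The ratio compares intron with exon reads of the same gene in each library. It rose in 5 genes, spd-2, sas-5, sas-4, gip-1 and zyg-9, by Fisher's exact test (two-sided, on the exon and intron counts of both libraries) with Benjamini-Hochberg adjustment over 14972 genes, and it fell in 0. The same rule called 28.1% of all tested genes as higher and 0.614% as lower, and 57.9% as higher among the 2593 genes with 3075 to 11817 exon reads in both libraries together, the span of the 10 centrosome genes. The share of 5 in 10 was therefore near that of genes in this span, which is set by read number and not by level per length. The test sets the reads of 1 library against those of the other; it does not test temperature, and there is no replicate check. All intervals are exact, at 95%, and hold counting error alone. PCR copies of a molecule may be counted as separate reads, in which case the intervals are too narrow.

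The median centrosome gene had a smaller ratio change than the median gene of the table, although its library-scaled intron reads did not change less. The median log2 ratio, with 0.5 reads added to each count, was 0.78 (1.72-fold) over the 10 genes. It was 1.06 (2.09-fold) over all tested genes and 1.04 over genes of the same exon read span. For library-scaled intron reads the order was the opposite, with a median log2 of 1.13 over the 10 genes, 0.4 over all tested genes and 1.05 in the span. Below both ratio medians lay 8 of the 10, and sas-4 and sas-5 lay above. A ratio at least 2-fold higher was found in these 2 genes, against 52.3% of all tested genes and 52.4% of genes in the span. With reads of the 10 genes summed, introns took 364 of the reads beside 27944 in exons at 16 °C, and 668 beside 29689 at 25 °C. That is an intron share of 1.29% (1.16 to 1.42) and 2.2% (2.04 to 2.37), and a ratio 1.73-fold higher (1.52 to 1.97). The same sum over every gene of the table gave 1.75-fold. Without sas-5 the ratio of the summed reads was 1.63-fold (1.43 to 1.87).

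**Figure D1:**
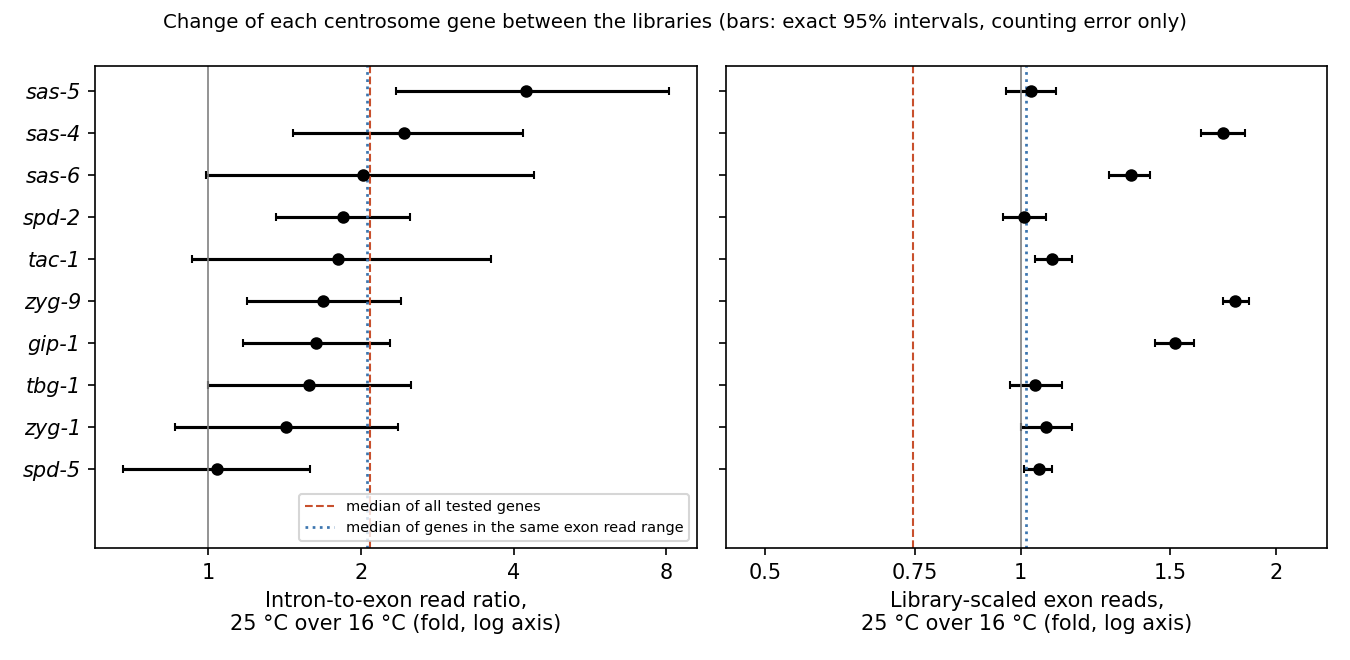
Points give the 25 °C over 16 °C fold of the intron-to-exon read ratio (left) and of library-scaled exon reads (right) for each centrosome gene on log axes, with exact 95% counting intervals; dashed and dotted lines are medians of all tested genes and of genes in the same exon read span. The ratio of sas-5 stands at 4.24 and that of spd-5 at 1.04, and exon folds run from 1.01 in spd-2 to 1.79 in zyg-9.

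The genes that start and build the centriole held both the strongest and some of the weaker ratio changes. SAS-5 is a coiled-coil protein that joins SAS-6 at the new centriole, and its gene sas-5 (WBGene00009385, chromosome V, 11610737 to 11612596, plus strand in the WBcel235 assembly of Ensembl release 115) changed most. It had 1753 exon and 15 intron reads at 16 °C, and 1490 exon and 54 intron reads at 25 °C. Introns thus took 0.848% of its reads (0.476 to 1.4) in the cooler library and 3.5% (2.64 to 4.54) in the warmer one. The ratio was 4.24-fold higher (2.34 to 8.11; Fisher exact test, adjusted p = 1.22e-06), while its exon level differed by less than counting error, at 1.03-fold (0.96 to 1.1). Of all 14972 tested genes, 76.6% had a lower ratio change than sas-5, and 89.0% of those in the span. In the authors' deposited table it alone of the 10 passed the threshold of 0.01, with an adjusted p there of 0.00135. Of all 19487 genes in that table, with no read minimum, 5.55% passed this threshold with a higher ratio. The unadjusted p there equalled that of the Fisher exact test here in all 10 genes, so it is not separate support. The adjusted p there is headed FDR. In spd-2 and sas-5 it matched the unadjusted p times the 19487 genes, as a Bonferroni adjustment gives.

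SAS-4, related to human CPAP, brings tubulin to the centriole wall, and sas-4 (WBGene00004726, III, 8314349 to 8318588, minus strand) combined more intron reads with more exon reads. Its exon reads numbered 1818 at 16 °C and 2599 at 25 °C, and its intron reads 21 and 73. Scaled by library total, exon reads were 1.73-fold higher (1.63 to 1.84) and intron reads 4.21-fold higher (2.56 to 7.21). The intron reads of sas-4 and sas-5 thus differed by nearly the same factor, 4.21 and 4.36 (2.43 to 8.32), and it is their exon reads that set the genes apart. The sas-4 ratio was 2.43-fold higher (1.47 to 4.18; Fisher exact test, adjusted p = 0.00122).

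SAS-6, the protein of the central tube, is encoded by sas-6 (WBGene00012888, IV, 13786945 to 13788731, minus strand). It had 2388 and 2657 exon reads at 16 °C and 25 °C, and only 12 and 27 intron reads. Intron reads scaled by library were 2.73-fold higher (1.34 to 5.91) and exon reads 1.35-fold higher (1.27 to 1.42). The ratio of 2.02 had an interval that reaches below 1 (0.988 to 4.39) and was not called by the Fisher exact test (adjusted p = 0.145); with 0.5 reads added to each count it stood at log2 0.98, just under 2-fold.

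SPD-2, related to human CEP192, acts both in centriole duplication and in the pericentriolar material. Its gene spd-2 (WBGene00004953, I, 8966985 to 8970081, minus strand) had the most intron reads of the 10 at 16 °C and the highest intron share in both libraries. Exon reads were 2702 and 2250, and intron reads 77 and 118. The intron share went from 2.77% (2.19 to 3.45) to 4.98% (4.14 to 5.94), and the ratio rose 1.84-fold (1.36 to 2.5; Fisher exact test, adjusted p = 0.000314). Scaled exon reads differed by less than counting error, at 1.01-fold (0.953 to 1.07).

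ZYG-1, the kinase that corresponds to PLK4 of other animals, is encoded by zyg-1 (WBGene00006988, II, 5649748 to 5654422, plus strand). It had 1847 and 1636 exon reads and 31 and 39 intron reads. This was a small difference on few reads: the Fisher exact test did not call its ratio (1.42, 0.859 to 2.37; adjusted p = 0.332), and exon reads stood at 1.07-fold (1.0 to 1.15). The annotation places exons of bli-2, on the opposite strand, inside the longest zyg-1 intron of 2022 bases. The deposited intron length of zyg-1, 311 bases, is shorter than that of the annotation by exactly this intron.

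The scaffold gene of the pericentriolar material showed almost no change. SPD-5 is a coiled-coil protein that assembles around the centrioles, and spd-5 (WBGene00004955, I, 5171275 to 5176654, minus strand) had the most exon reads of the 10 at 16 °C. It had 5569 exon and 50 intron reads at 16 °C and 4823 exon and 45 intron reads at 25 °C. It was the only one of the 10 with fewer unscaled intron reads in the warmer library. The intron share was 0.89% (0.661 to 1.17) and 0.924% (0.675 to 1.23), the ratio 1.04 (0.678 to 1.59; Fisher exact test, adjusted p = 1.0), and the scaled exon fold 1.05 (1.01 to 1.09). The upper bound of 1.59 lies under the all-gene median of 2.09, and 10.4% of genes in the span had a lower ratio change. Its interval also ends below the lower bound of sas-5, 2.34. The deposited intron length of spd-5, 431 bases, again leaves out the longest annotated intron, of 889 bases.

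The genes of the γ-tubulin complex moved apart in exon level and together in ratio. TBG-1 is γ-tubulin, the seed of new microtubules, and tbg-1 (WBGene00006540, III, 9626536 to 9629154, minus strand) had 1651 and 1424 exon reads and 36 and 49 intron reads. GIP-1 is its partner in the complex, related to GCP3, and gip-1 (WBGene00001589, III, 2347591 to 2362056, plus strand) had 2421 and 3030 exon reads and 58 and 118 intron reads. Their ratios stood at 1.58 (0.999 to 2.51) and 1.63 (1.17 to 2.28), and the Fisher exact test called gip-1 (adjusted p = 0.0117) and not tbg-1 (adjusted p = 0.133). The intervals overlap almost throughout, so this difference in call does not show a difference between them. Scaled exon reads of gip-1 were 1.52-fold higher (1.44 to 1.6) and those of tbg-1 1.04-fold (0.973 to 1.12).

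The microtubule-stabilizing partners also parted in exon level. ZYG-9, the worm XMAP215 protein, adds tubulin to growing microtubule ends, and zyg-9 (WBGene00006994, II, 8457818 to 8464512, plus strand) had the largest exon difference of the 10. Its exon reads numbered 4766 at 16 °C and 7051 at 25 °C, 1.79-fold higher after scaling (1.73 to 1.86). Of its 167 intron reads 48 came from the 16 °C library, so that they were 3.0-fold higher at 25 °C after scaling (2.13 to 4.29), which left a ratio 1.68-fold higher (1.19 to 2.4; Fisher exact test, adjusted p = 0.0112). TAC-1, the transforming acidic coiled-coil protein that binds ZYG-9, is encoded by tac-1 (WBGene00006381, II, 14752891 to 14753877, minus strand). It had 3029 and 2729 exon reads and 16 and 26 intron reads. Its exon fold was 1.09 (1.04 to 1.15), and the Fisher exact test left its ratio uncalled (1.8, 0.929 to 3.61; adjusted p = 0.172).

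Of the 5 calls, 4 rest on the milder adjustment: with a Bonferroni adjustment of the same exact test sas-5 remained (adjusted p = 0.00104), while spd-2 had an adjusted p of 0.564, and sas-4, gip-1 and zyg-9 of 1.0. For gad-1 itself the exon fold was 1.07 (1.01 to 1.12), and the Fisher exact test did not call its ratio (1.86, 0.83 to 4.36; adjusted p = 0.307).

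In exon level the 10 genes fell into those that stayed within 1.09-fold and those that were clearly higher. Exon folds of spd-2, sas-5, tbg-1, spd-5, zyg-1 and tac-1 ran from 1.01 to 1.09, and those of sas-6, gip-1, sas-4 and zyg-9 from 1.35 to 1.79. No gene was 2-fold different in either direction, whereas among all 14313 genes with enough exon reads 5.81% were higher by that factor and 33.6% were lower. In the exon read span of the 10 these shares were 2.01% and 7.94%, so 0 of 10 is near the share of genes in the span. A fold of 1.5 or more was reached by gip-1, sas-4 and zyg-9, against 11.2% of all genes with enough exon reads and 9.18% in the span. The median log2 exon change was 0.11 over the 10 genes, -0.42 over all genes and 0.02 over genes in the span. All 10 values lay above 0, as did 32.8% of all genes and 51.3% in the span. Scaling by the median exon ratio in place of the library total added 0.42 to each log2 value, which cannot turn a value above 0. Under it sas-4, gip-1 and zyg-9 passed 2-fold, as did 11.2% of all genes and 9.18% in the span. Intron reads, scaled by library total, were at least 2-fold higher in 5 genes, sas-4, sas-5, sas-6, gip-1 and zyg-9, against 35.9% of all tested genes and 52.3% in the span.

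**Figure D2:**
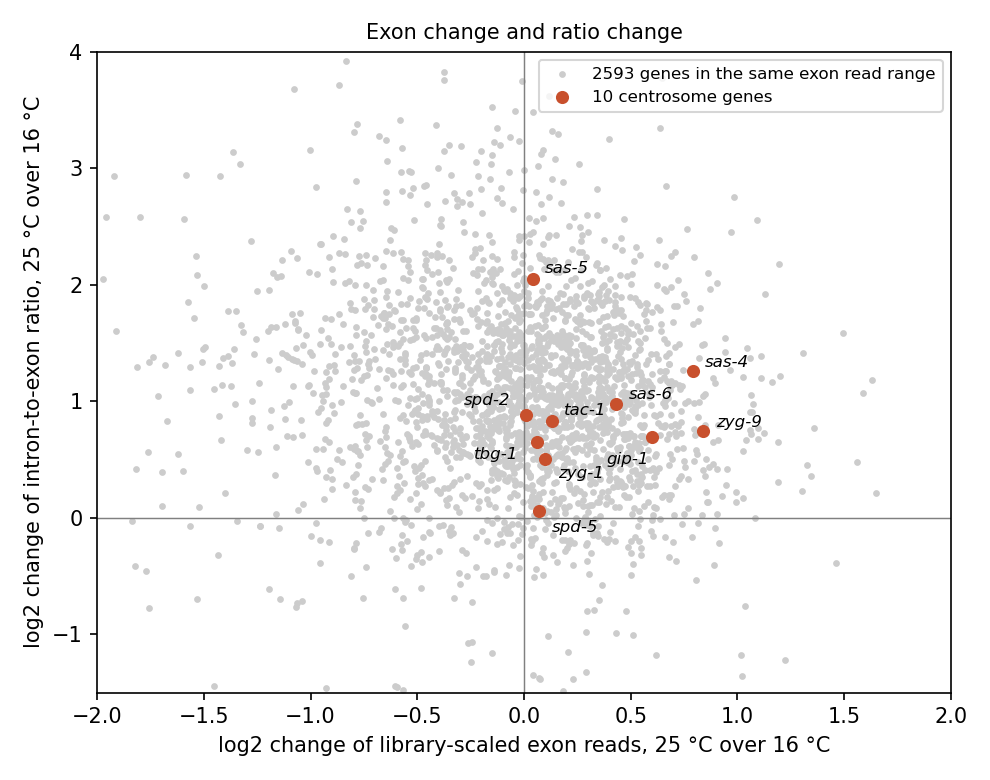
Each point is a gene, placed by its log2 change of library-scaled exon reads (horizontal) and of its intron-to-exon ratio (vertical), 25 °C over 16 °C; grey points are the 2593 genes in the same exon read span, of which 110 lie outside the axes. The centrosome genes all lie right of 0 and above 0, sas-5 high at little exon change, and zyg-9, sas-4 and gip-1 farthest to the right.

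The exon change and the ratio change showed no common order among the 10 genes (Spearman's rho 0.03, a description over genes that share both libraries). Exon reads enter both quantities, with opposite sign in the ratio, and 10 genes are too few to show that the changes are unrelated. The gene with the largest ratio change, sas-5, had an exon log2 of 0.04, and that with the largest exon change, zyg-9, a ratio log2 of 0.74. Over 4042 other genes with at least 50 intron reads, those nearest to the median of the 10 in both changes were timm-17B.2, M106.3 and W09C5.1, at distances of 0.0129, 0.0135 and 0.017 on the log2 scale. With 2 libraries this likeness rests on 1 difference per quantity, and it says nothing of shared function.

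Levels of different genes were compared as exon reads per kb of summed exon length and per 1000000 reads of the library. The order was led by tac-1 in both libraries, at 152.5 (147.1 to 158.1) at 16 °C and 166.5 (160.3 to 172.8) at 25 °C. At 16 °C sas-6 (63.2) and spd-5 (62.8) followed with overlapping intervals, then zyg-9 (47.9), then spd-2 (41.8) and sas-5 (41.7), which overlapped. The lowest were zyg-1 (35.7), tbg-1 (33.7), sas-4 (interval 29.6 to 32.5) and gip-1 (30.6), of which each overlapped its neighbour. At 25 °C zyg-9 (85.8) and sas-6 (85.2) came next after tac-1 and overlapped, followed by spd-5 (65.8) and sas-4 (53.7). Then came gip-1 (46.4), sas-5 (43.0) and spd-2 (42.2), each overlapping its neighbour, and last zyg-1 (38.3) and tbg-1 (35.2). By the deposited lengths sas-4 therefore passed from the ninth place in the cooler library to the fifth in the warmer, and zyg-9 from the fourth to the second. The partners tac-1 and zyg-9 differed in level in both libraries beyond their counting intervals. Several places depend on the deposited exon lengths. With those of the annotation tbg-1, at 1476 in place of 2228 bases, stood at 50.8 and 53.1 and above gip-1 (30.6 and 46.4) in both libraries, and sas-5, at 1378 in place of 1908 bases, stood at 57.8 and 59.5. The places of zyg-9 and sas-4 then differ too. At 16 °C zyg-9 (48.0) lay below sas-5 and tbg-1. At 25 °C zyg-9 (85.9) lay below sas-6 (93.8), and sas-4 (53.7) below sas-5.

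The centrosome genes differed widely in how densely their introns were covered. Intron density is given here as intron reads per kb of intron in percent of exon reads per kb of exon. At 16 °C it was highest in spd-2 (16.7%), zyg-1 (12.7%) and spd-5 (8.39%), and lowest in sas-4 (1.95%) and gip-1 (0.79%). The places of zyg-1 and spd-5 rest on deposited intron lengths of 311 and 431 bases, which leave out their longest annotated intron. The annotated lengths are 2333 and 1320 bases, and the same reads over these would give lower densities. The median of the 10 below uses the deposited lengths too. At 25 °C spd-2 reached 30.7% and sas-5 15.8%, whereas gip-1, with 10877 bases of intron the longest of the 10, stood at 1.29%. The median of the 10 was 3.96% at 16 °C and 7.56% at 25 °C, beside 1.72% and 3.81% over genes in the same exon read span. Over the 10 genes, which share libraries and depth, Spearman's rho of density with the median intron length was -0.61 at 16 °C and -0.82 at 25 °C, and with the summed intron length -0.55 and -0.61. A negative value is partly built in, since density is divided by intron length. Most introns of these genes are short, 44 of 69 being under 100 bases in the annotation. A read on such an intron also reaches into exons, and the rule that assigned such reads is not given in the sources used here, so density per length is not a measure of unspliced transcripts. In the fold between libraries the lengths cancel, but the effect of that rule on the counts was not tested.

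**Figure D3:**
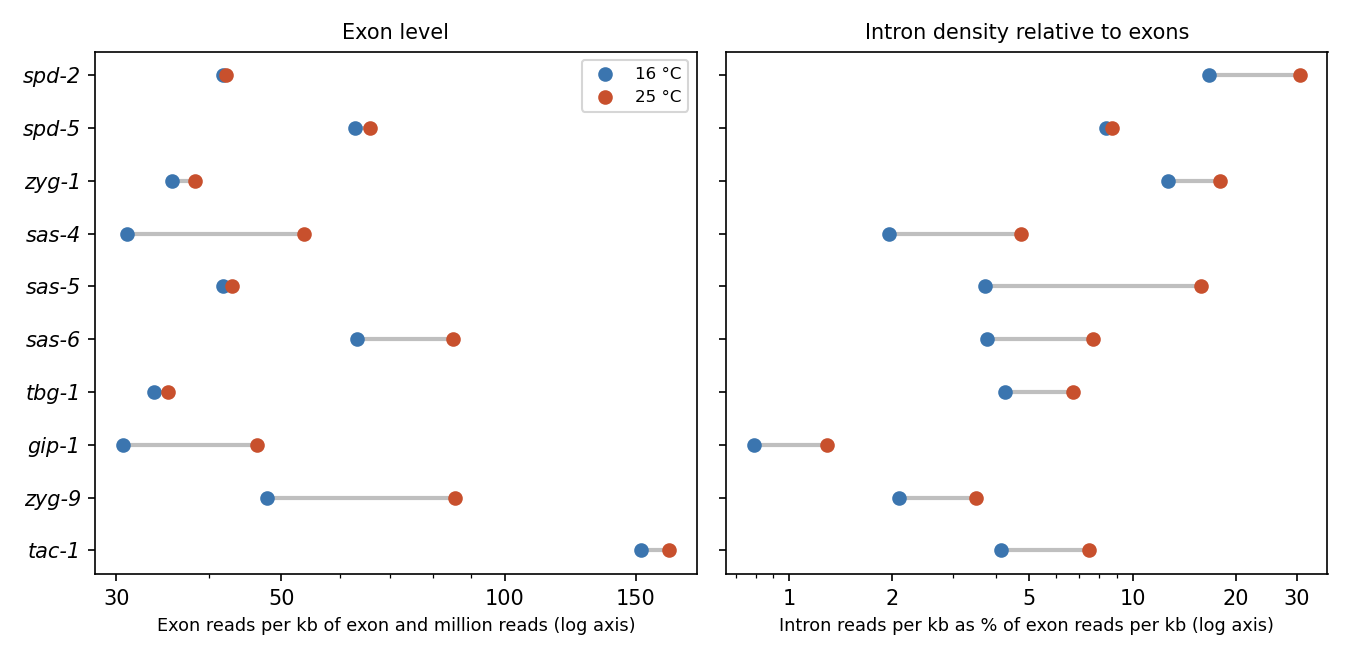
For each centrosome gene the left panel gives exon reads per kb and per 1000000 reads and the right panel intron reads per kb in percent of exon reads per kb, at 16 °C (blue) and 25 °C (orange), on log axes. Exon level moves most in sas-4, gip-1 and zyg-9, and intron density most in sas-5, from 3.72% to 15.8%.

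Some of these counts are uncertain for reasons of gene layout. In the annotation spd-2, spd-5 and zyg-1 overlap a gene on the opposite strand (mdt-31, hcp-6 and bli-2), and sas-6 overlaps icap-1 on the same strand. Of these overlaps, that of zyg-1 alone puts foreign exon bases into an intron, 994 of them. That intron is left out of the deposited intron length of zyg-1, and whether its reads were counted is not known. The other 6 genes overlap no other gene. The deposited summed intron length equalled that of the annotation in 7 of the 10 and the exon length in 2, so levels per length depend on the gene models used.

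Other genes of the centrosome and spindle gave a background within the same process. Over 42 such genes, none of them among the 10, the ratio rose in 24 and fell in 0 by the Fisher exact test with the same adjustment, with a median log2 of 1.03. That share, and those of the lists below, are to be read beside the 28.1% of all tested genes and the 57.9% of genes in the exon read span of the 10. Neither is a matched share, since calls depend on read number and many of these genes lie outside that span. Above it lies, for example, dhc-1 (12009 exon reads at 16 °C and 14910 at 25 °C), and below it mei-2 (779 and 487). Their exon reads had a median log2 of 0.33, 1 gene was higher by 2-fold or more and 0 were lower by that factor. The 10 centrosome genes thus had the lower median in both quantities, without a test of that difference.

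Among kinases, phosphatases and other regulators of the centrosome the ratio rose in 8 of 12, with a median log2 of 1.03. The largest rises were in sur-6, a regulatory subunit of the phosphatase PP2A (5.34-fold, 2.77 to 11.3), in tpxl-1, the activator of Aurora A (3.94-fold, 1.6 to 11.6), and in air-1, the Aurora A kinase itself (3.07-fold, 2.08 to 4.62). Exon reads differed most in plk-1, the Polo kinase that promotes scaffold assembly, at 1.59-fold (1.53 to 1.65), and in rsa-2, which ties PP2A to the centrosome, at 1.54-fold (1.47 to 1.6). The ratio of rsa-2 was not called (1.32, 0.955 to 1.83). Reads of sur-6, tpxl-1, air-1 and rsa-2 are uncertain because each overlaps another gene.

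Of 7 other centriole, γ-tubulin and microtubule organizing proteins, 4 had a risen ratio, with a median log2 of 0.98. In gip-2, which overlaps other genes and encodes the GCP2-type partner of gip-1, it rose 2.59-fold (1.6 to 4.3), and in ptrn-1, a binder of microtubule minus ends, 2.52-fold (1.77 to 3.64). For mzt-1, a small protein of the γ-tubulin complex, the ratio rose 2.24-fold (1.5 to 3.34) at nearly equal intron reads, 57 and 54, while exon reads were 1777 and 752. Its exon level was 1.95-fold lower, the strongest decrease among all 52 genes considered, members included. In sas-7, a centriole protein that acts with SPD-2, exon reads were 1.62-fold higher (1.54 to 1.71) and the ratio was not called (0.868, 0.654 to 1.15). It too overlaps another gene.

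Genes for microtubule dynamics at the spindle rose in 5 of 11, with a median log2 of 0.9. In ebp-1, an end-binding protein, the ratio rose 3.71-fold (2.75 to 5.08), and in bmk-1, the kinesin-5 motor, 2.08-fold (1.52 to 2.87). The kinesin klp-7, a microtubule depolymerase, went from 1 to 52 intron reads, but overlaps other genes. Its exon reads were 1.85-fold higher (1.72 to 1.98) and those of cls-2, a CLASP protein, 1.87-fold higher (1.78 to 1.97), at a cls-2 ratio of 1.03 (0.655 to 1.63) that was not called.

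In the list for centrosome to nucleus attachment, dynein and proteins that act with it, the ratio rose in 7 of 12, with a median log2 of 1.04. The largest rise was in lis-1, a dynein regulator, with 7 and 68 intron reads and a ratio 8.18-fold higher (3.75 to 21.2). The dynein light intermediate chain gene dli-1 rose 4.46-fold (2.14 to 10.2) and the dynactin gene dnc-2 3.91-fold (1.86 to 8.8), although both overlap another gene. Exon reads of unc-84, which encodes a SUN protein of the nuclear envelope, were 2.12-fold higher (2.06 to 2.19), and those of dhc-1, the dynein heavy chain, 1.5-fold higher (1.47 to 1.54). With 4 and 11 intron reads the dhc-1 ratio was not called. Reads of gpr-1 and gpr-2, in the same list, are uncertain because the genes are near-identical copies.

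**Figure D4:**
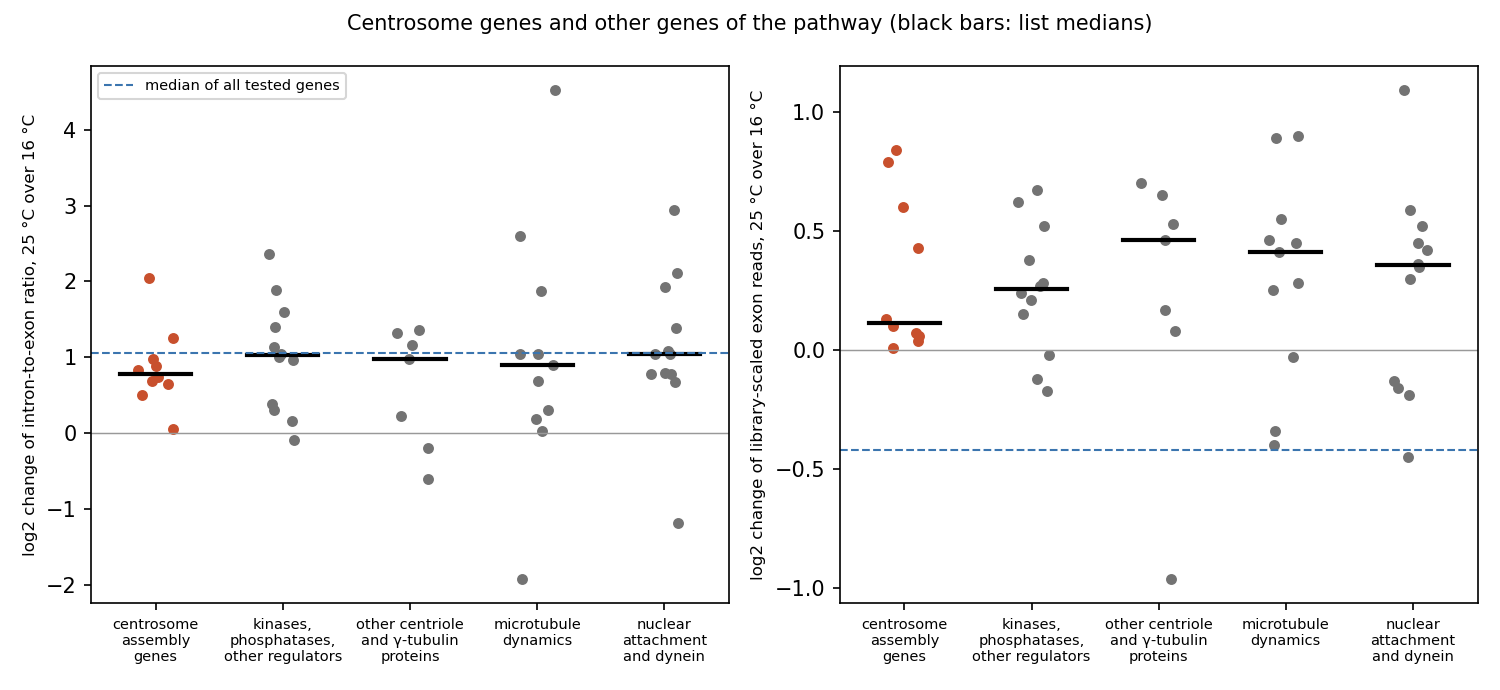
Each point is a gene, with its log2 change of the intron-to-exon ratio (left) or of library-scaled exon reads (right), 25 °C over 16 °C, for the 10 centrosome assembly genes and the other lists of the pathway; black bars are list medians and the dashed line the median of all tested genes. The ratio medians of the lists lie between 0.78 and 1.04, and every exon median lies above the all-gene median of -0.42.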

How the data were processed

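The series measured RNA from 1 library of gad-1 mutant embryos per temperature. The submitters' processing notes name Trimmomatic, TopHat2 and HTSeq. Not given in the sources used here were versions, genome build, annotation and any strand setting. Per gene, the deposited table gives raw counts of exon and intron reads, summed lengths, and the authors' fold, a ratio of intron-to-exon ratios, with its p-value and adjusted p, per the file headers. The labels carry the column marks Con (16 °C) and Exp (25 °C), which gave the match of columns to libraries.

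From the counts, Fisher exact tests (SciPy 1.17.1, Python 3.11.15) were run on genes with at least 10 combined reads and adjusted by Benjamini-Hochberg at 0.05. Exon changes were called by size, at 2-fold, where either library had at least 10 exon reads. Medians use 0.5 added reads; single folds use none. The test was checked on simulated data. Positions come from Ensembl release 115 by gene identifier. Named pathway genes are the 3 largest ratio changes per list, from 20 combined intron reads up, and the 2 largest exon changes. The members and lists were chosen with earlier results of these data known. Alternatives covered the adjustment, read minimum, pseudocount, fold threshold and scaling.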

Additional observations from a re-analysis of the deposited data

How the results depend on the processing

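The median ratio change of the 10 genes (log2 0.78) was 0.77 with a pseudocount of 1 and 0.78 with at least 20 intron reads. Library-scaled intron reads, another quantity, had a median of 1.13, above that of all genes (0.4), whereas the ratio median was below it. The median exon change (0.11) ranged from 0.11 to 0.53 over its alternatives. The 5 ratio calls became 1 with Bonferroni adjustment, where all genes gave 1322 in place of 4200 and the pathway lists 4, 1, 3 and 2 in place of 8, 4, 5 and 7. The same 5 genes were called with no read minimum and with at least 20 intron reads. The count of 2 genes at least 2-fold higher in ratio became 8 at 1.5-fold. The share of all genes at 1.5-fold was not counted, so the 8 has no like background here. Above log2 0 were 80.4% of all tested genes and 90.7% in the span. The count became 5 when library-scaled intron reads took the place of the ratio, against 35.9% of all tested genes and 52.3% in the span. The 0 genes 2-fold different in exon reads became 3 when scaled by the median exon ratio and 3 at 1.5-fold. The stricter adjustment, the looser fold and the change of scaling account for their own effects by construction. Scaling by the median exon ratio adds 0.42 to each log2 exon value. The log2 change of library-scaled intron reads is the sum of the log2 changes of the ratio and of exon reads. Why the median exon ratio differs from the ratio of library totals was not tested. The centrosome genes had 12 to 77 intron reads each at 16 °C. With 12 and 27 intron reads in the 2 libraries, the sas-6 ratio of 2.02 had an interval of 0.988 to 4.39 and was not called. No paired analysis was possible because there is 1 library per temperature and the labels give no replicate numbers.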
